A study of Mus musculus with 6 samples.

Results

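The complement genes described here are 36 components, receptors and regulators of the complement system, taken as a fixed list of symbols and not by their values. A row for each of the 36 was found in the tables of all 6 libraries, which hold 19349 genes. Single-cell RNA sequencing in droplets, on the 10x Genomics platform, was run on liver non-parenchymal cells (LNPCs), the cells of the liver other than hepatocytes, in 3 vehicle and 3 ginkgetin libraries. By the study's methods, both groups were male C57BL/6J mice that began at 8 weeks of age, were fed a high-fat diet (HFD) for 24 weeks to induce nonalcoholic steatohepatitis (NASH), and were dosed by gavage over the last 8 weeks. The vehicle group, labelled Control, was given DMSO, and the ginkgetin group was given ginkgetin, a biflavone of Ginkgo biloba leaves, at 10 mg/kg per day. No library from mice on a chow diet was among those used. The labels do not say whether replicates came from separate mice, so the p-values measure the spread between these libraries, which may be technical.

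Complement is a cascade of plasma proteins that marks cells, debris and microbes for uptake or lysis. The classical pathway starts when C1q, carrying the proteases C1r and C1s, binds a target, and the lectin pathway when mannose-binding lectins or ficolins do so with MASP proteases. Both cleave C4 and C2 to form a C3 convertase, and the alternative pathway builds another from C3 and factor B with the help of factor D and properdin. C5 to C9 then assemble the membrane attack complex. Cleavage fragments are read by the C3a and C5a receptors, tagged particles are taken up through Vsig4 and the integrins of Itgam and Itgax, and inhibitors such as Cd55, Cd59a, Cr1l, C4bp, Cfi, Serping1 and Clu hold the cascade in check. Hepatocytes are the best known source of the plasma components, tissue macrophages of C1q, and Kupffer cells, the resident macrophages of the liver sinusoid, are known for Vsig4.

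Each library held 3577 to 8119 barcodes and 13128697 to 61796882 unique molecular identifiers (UMIs, each counting 1 captured transcript). The study's methods kept cells with 250 to 5000 UMIs, whereas the filter used for the values here departs from this and applies these limits to genes per cell. It kept 27544 of 33168 barcodes, where the limits in UMIs kept 16821. The study reports more cells after its quality control than the limits in UMIs kept here. Median UMIs per kept cell were 4365, 3911.5 and 8412 in the vehicle libraries and 2483, 2622.5 and 6262 in the ginkgetin libraries. Here and below, the values of a group stand in the order of replicates 1, 2 and 3, with vehicle before ginkgetin. Clustering left out the complement genes, and 30 of 39 clusters were named from marker genes, with 2390 cells in 9 clusters unnamed. Replicate 3 of each group stood apart: it used another set of gene symbols, and 3199 genes were at 0 in one of the sets. Of the complement genes, Masp1 had 0, 2 and 994 UMIs in the kept cells of the vehicle libraries against 0, 5 and 2950. C7 had 0, 0 and 29 UMIs against 0, 3 and 50. Both genes therefore stood almost entirely in replicate 3, and no comparison is made of either. Any 2 libraries shared at most 85 barcodes. Macrophage-like cells were 19.2%, 20.4% and 26.5% of kept cells against 2.92%, 3.45% and 15.1%, and endothelial-like cells were 16.5%, 14.5% and 8.56% against 34.9%, 43.7% and 28.3%.

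The first question was which cells of the preparation carried each complement gene. Levels are given as CPM (counts per 1e6), the UMIs of a gene scaled by the UMIs of all genes, summed over the cells of 1 class in 1 library, and the mean ± SD is taken over all libraries with at least 10 cells of the class. 8 classes were ranked, the lymphoid-like one holding B, T, NK and plasma cells, and neither the 370 plasmacytoid dendritic-like cells nor the unnamed clusters were ranked. Of the 36 genes, 8 had their highest mean in macrophage-like cells, 9 in stellate-like cells, 11 in hepatocyte-like cells, 4 in endothelial-like cells, 2 in cholangiocyte-like cells and 1 each in monocyte-like and dendritic-like cells. For 24 genes the lowest library of the first class lay above the highest library of the second, and for the other 12 the ranges overlapped. These counts were not made over all genes, so they are not read as a trait of the complement genes.

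**Figure D1:**
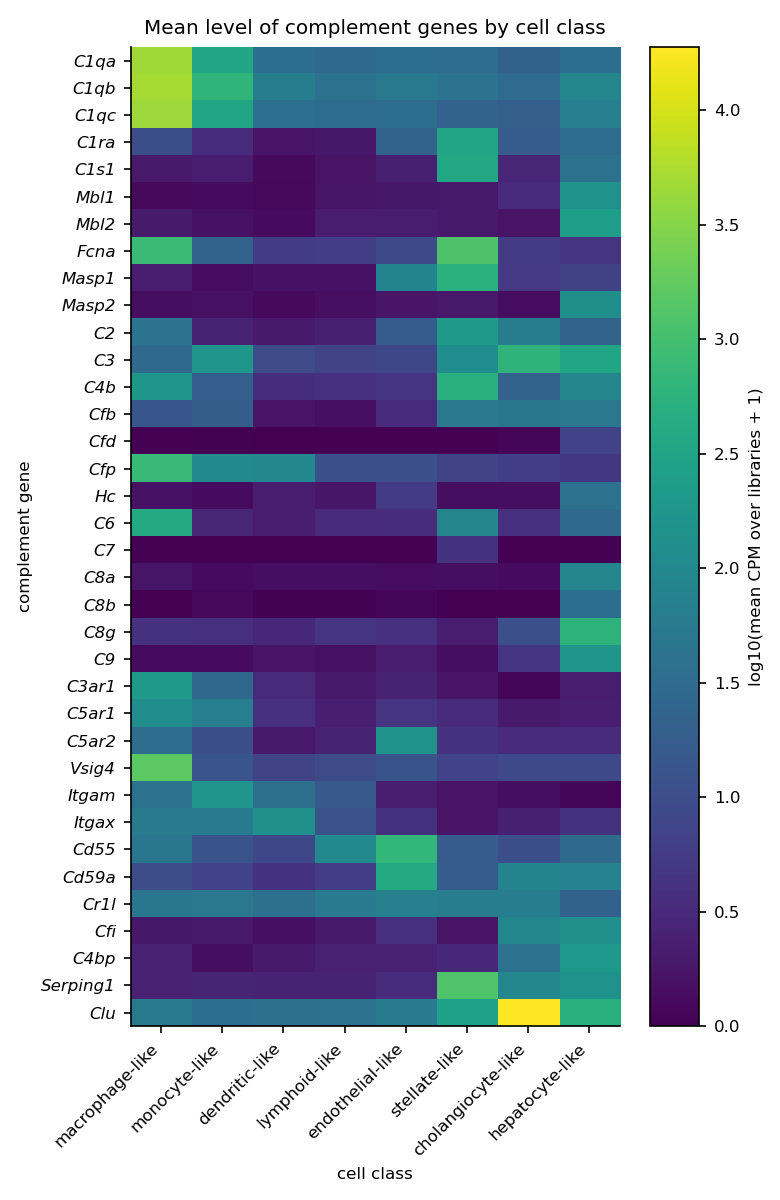
Mean level of each of the 36 complement genes (rows, ordered by pathway step) in 8 cell classes (columns), as log10 of the mean CPM over libraries plus 1. C1qa, C1qb and C1qc are brightest in macrophage-like cells, Clu in cholangiocyte-like cells, Cd55 in endothelial-like cells, Serping1 in stellate-like cells and C8g in hepatocyte-like cells.

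Among the recognition and initiation genes, the 3 chains of C1q were highest in macrophage-like cells. C1qa stood at 4562 ± 904 CPM (SD, n = 6), C1qb at 5082 ± 1864 CPM (SD, n = 6) and C1qc at 4448 ± 865 CPM (SD, n = 6), with monocyte-like cells next at 341 ± 111, 632 ± 301 and 341 ± 142 CPM and no overlap of libraries. In contrast, the proteases that bind C1q were highest in stellate-like cells, the retinoid-storing pericytes of the sinusoid: C1ra stood at 339 ± 103 CPM (SD, n = 5) and C1s1 at 355 ± 102 CPM (SD, n = 5), apart from hepatocyte-like cells next at 31.5 ± 27.1 and 39.2 ± 36.3 CPM. Serping1, which encodes the inhibitor of C1r and C1s, was highest in the same class at 1255 ± 429 CPM (SD, n = 5). Fcna, which encodes the lectin ficolin A, stood at 1198 ± 779.9 CPM (SD, n = 5) in stellate-like cells and 819.7 ± 656 CPM in macrophage-like cells, and these libraries overlapped. The mannose-binding lectins and their protease were hepatocyte genes here: Mbl2 stood at 246 ± 64.2 CPM (SD, n = 5), Mbl1 at 153 ± 42.1 CPM (SD, n = 5) and Masp2 at 131 ± 76.2 CPM (SD, n = 5) in hepatocyte-like cells, and the next class of each was at or below 2.37 ± 1.44 CPM.

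The convertase genes were spread over several classes. C3, the central component, was highest in cholangiocyte-like cells at 596 ± 385 CPM (SD, n = 6), overlapping hepatocyte-like cells at 332 ± 309 CPM, and the unnamed clusters together stood at 364 ± 276 CPM, with C3 among the leading genes of 1 of them beside Dpt, Clec3b and Gas1. C4b stood at 485 ± 636 CPM (SD, n = 5) in stellate-like cells, where vehicle replicate 3 alone reached 1620.2 CPM, and overlapped macrophage-like cells at 179 ± 172 CPM. C2 was highest in stellate-like cells at 202 ± 71.3 CPM (SD, n = 5), above cholangiocyte-like cells at 64.4 ± 5.69 CPM with no overlap, and Cfb at 50.5 ± 26.4 CPM (SD, n = 5) in stellate-like cells overlapped hepatocyte-like cells at 48.6 ± 42.0 CPM. Cfp, which encodes properdin, was a macrophage gene at 757 ± 204 CPM (SD, n = 6). Cfd, which encodes factor D and is known from fat tissue, gave 25 UMIs in the kept cells of the vehicle libraries and 0 in those of the ginkgetin libraries, and its highest class was hepatocyte-like at 6.33 ± 6.23 CPM (SD, n = 5).

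Of the terminal components, C8g at 575 ± 276 CPM (SD, n = 5), C9 at 169.8 ± 49.9 CPM (SD, n = 5), C8a at 86.7 ± 93.0 CPM (SD, n = 5), Hc (C5) at 40.4 ± 27.7 CPM (SD, n = 5) and C8b at 33.5 ± 26.1 CPM (SD, n = 5) were highest in hepatocyte-like cells, each with no overlap with the next class. C6 was an exception, highest in macrophage-like cells at 416 ± 371 CPM (SD, n = 6). Its libraries there ran from 90.2 to 909 CPM and overlapped stellate-like cells at 85.8 ± 58.7 CPM. C7 had its few UMIs in stellate-like cells at 3.25 ± 4.52 CPM (SD, n = 5) and in unnamed clusters at 4.12 ± 6.71 CPM. Masp1 stood at 547 ± 916 CPM (SD, n = 5) in stellate-like cells, with 2 libraries of replicate 3 at 593 and 2122 CPM and the other 3 at or below 12.0 CPM.

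The receptors divided by myeloid and endothelial class. Vsig4, the receptor for C3b and iC3b, stood at 1555 ± 622 CPM (SD, n = 6) in macrophage-like cells and at 12.3 ± 8.59 CPM in monocyte-like cells. Within the macrophages it stood at 2082 ± 457 CPM in Kupffer-like cells and 249.6 ± 129.6 CPM in the other macrophage-like cells. The C3a receptor gene C3ar1 at 202 ± 35.0 CPM (SD, n = 6) and the C5a receptor gene C5ar1 at 122 ± 28.1 CPM (SD, n = 6) were highest in macrophage-like cells, C3ar1 apart from and C5ar1 overlapping monocyte-like cells at 27.0 ± 16.8 and 65.5 ± 42.5 CPM. The second C5a receptor gene, C5ar2, was highest in endothelial-like cells at 155 ± 32.0 CPM (SD, n = 6), and no library there overlapped the macrophage-like level of 33.0 ± 17.8 CPM. Itgam, the alpha chain of complement receptor 3, was highest in monocyte-like cells at 171 ± 79.1 CPM (SD, n = 6). Itgax, the alpha chain of complement receptor 4, was highest in dendritic-like cells at 138 ± 36.3 CPM (SD, n = 6), overlapping macrophage-like cells at 60.1 ± 33.4 CPM.

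The membrane inhibitors were highest in endothelial-like cells. Cd55, which speeds the decay of convertases, stood at 680.5 ± 187 CPM (SD, n = 6) and Cd59a, which blocks the membrane attack complex, at 414 ± 64.3 CPM (SD, n = 6), both apart from the other 7 classes compared. Among lymphoid-like cells Cd55 stood at 399 ± 145 CPM in B cell-like cells and 25 ± 11.7 CPM in T cell-like cells. Cr1l, the rodent inhibitor Crry, stood at 71.7 ± 32.5 CPM (SD, n = 6) in endothelial-like cells, overlapping cholangiocyte-like cells at 62.5 ± 17.4 CPM, and was lowest in hepatocyte-like cells at 19.9 ± 5.95 CPM. The fluid-phase inhibitor gene Clu was highest in cholangiocyte-like cells at 18930.3 ± 3928 CPM (SD, n = 6), and this class held 94.1% ± 2.40 in vehicle and 90.4% ± 4.61 in ginkgetin of all Clu UMIs. C4bp at 188 ± 47.6 CPM (SD, n = 5) and Cfi at 139 ± 66.9 CPM (SD, n = 5) were highest in hepatocyte-like cells, where C4bp stood apart from and Cfi overlapped cholangiocyte-like cells at 38.2 ± 18.2 and 91.1 ± 20.2 CPM. Cd59a, C4b and C1ra have close copies (Cd59b, C4a and C1rb), and how the authors' counting split reads between copies was not tested.

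For the preparation as a whole, all kept cells were summed per library. The C1q genes, properdin, C3ar1, C5ar1 and Vsig4 were lower with ginkgetin than with vehicle, and Cd55, Cd59a and C5ar2 were higher. Values here are normalised CPM, that is CPM after scaling by the trimmed mean of M-values (TMM), and a gene was called at an edgeR quasi-likelihood adjusted p under 0.05, over all genes tested, and a fold over 2. Of the 36 genes, 33 passed the filter on low counts (C7, Cfd and Masp1 did not) and 13 were called, 10 lower and 3 higher with ginkgetin, while 13% of the 14240 genes tested were called. These calls depended on the filter on cells. With the limits in the study's own unit, 250 to 5000 UMIs per cell, edgeR called 0 of 31 complement genes and 0 of 12131 genes. At an unadjusted p under 0.05 by edgeR were 8 complement genes and 14.2% of all genes. The log2 fold changes of Cfp and Vsig4 turned to 0.43 and 1.22. Over all alternatives, this filter among them, the values nearest to 0 were -0.07 for C1qa, -0.45 for C3ar1, -0.66 for C1qc, -1.66 for C5ar1 and -1.83 for C1qb. The limit of 5000 UMIs lay below the median of macrophage-like cells in each vehicle library (7545.5 to 16339). It lay above that median in each ginkgetin library (2055 to 2348). The part of this in the lost calls was not tested. The median log2 fold change was -0.82 over the 33 genes and 0.04 over all genes tested. In such sums, fewer cells of a type and less RNA per cell cannot be told apart. Scaling by library totals in place of TMM moved the median log2 fold change of all genes to 0.36, in macrophage-like cells to 0.52 and in Kupffer-like cells to 0.47, so that directions are relative to the TMM centre. With totals the calls over all genes moved from 947 higher and 910 lower to 1291 higher and 423 lower.

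C1qb fell most among them, at 2856, 2856 and 3499.6 normalised CPM in the vehicle libraries and 174, 138 and 195 in the ginkgetin libraries, 18.2-fold lower with a log2 fold change of -4.18 (standard error 0.30, adjusted p 0.00195 by edgeR). All vehicle libraries were far above all ginkgetin libraries. C1qc stood at 2540.4, 2036 and 2199 normalised CPM in the vehicle libraries and 160.0, 129.9 and 245 in the ginkgetin libraries, and C1qa at 1438, 1992 and 2774 against 164, 151 and 346 normalised CPM in the same order. The log2 fold changes were -3.66 (standard error 0.35, adjusted p 0.0023 by edgeR) for C1qc and -3.23 (standard error 0.47, adjusted p 0.00602 by edgeR) for C1qa, again with no overlap. C5ar1 fell by 3.64 on the log2 scale, at 84.0, 74.3 and 80.3 against 4.79, 5.45 and 8.77 normalised CPM, and C3ar1 by 3.24, at 74.8, 83.7 and 121 against 5.79, 7.61 and 16.0 normalised CPM. Properdin (Cfp) stood at 332, 301 and 293 against 41.8, 38.5 and 89.3 normalised CPM and Vsig4 at 491, 357 and 411 against 69.3, 66.6 and 145 normalised CPM, with log2 fold changes of -2.45 and -2.16. These 7 genes are those whose highest class was macrophage-like, apart from C6. C6 itself stood at 39.2, 35.8 and 46.5 against 25.2, 21.0 and 60.2 normalised CPM and did not pass the test, with a log2 fold change of -0.19 (standard error 0.40, adjusted p 0.797 by edgeR) and overlapping groups. Itgam (-1.36), Itgax (-1.35) and C4bp (-1.82) were also called lower, and their 3 vehicle libraries were each above their 3 ginkgetin libraries. The call of C4bp was lost with any 1 of the 6 libraries left out, with no filter on low counts and with the highest doublet scores left out.

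The 3 genes called higher were those highest in endothelial-like cells, apart from Cr1l. Cd55 rose, at 90.1, 69.3 and 79.0 normalised CPM in the vehicle libraries and 219, 259 and 298 in the ginkgetin libraries, a log2 fold change of 1.70 (standard error 0.21, adjusted p 0.00386 by edgeR). Cd59a stood at 60.1, 48.2 and 33.1 against 128, 211 and 123 normalised CPM and C5ar2 at 27.3, 23.6 and 24.8 against 43.5, 69.4 and 53.6 normalised CPM, with log2 fold changes of 1.71 (standard error 0.32, adjusted p 0.0133 by edgeR) and 1.14 (standard error 0.20, adjusted p 0.0117 by edgeR). The groups did not overlap for any of the 3. Cr1l stood at 69.8, 55.6 and 65.1 against 42.6, 40.6 and 65.6 normalised CPM with a log2 fold change of -0.36, and its groups overlapped.

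**Figure D2:**
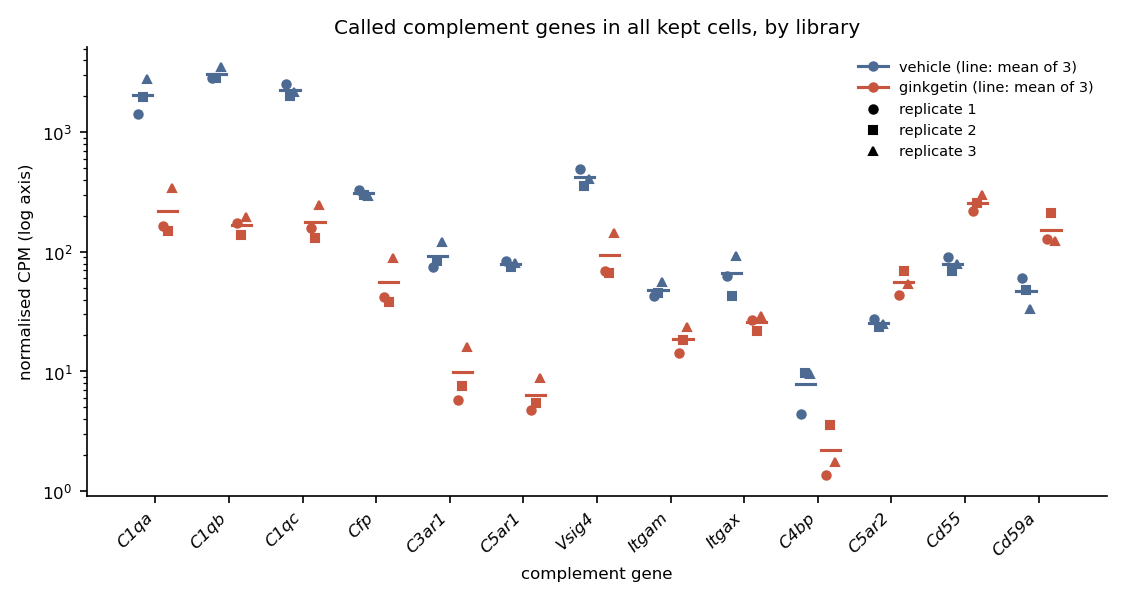
Normalised CPM (log axis) of the 13 complement genes called in all kept cells, 1 point per library with the replicate as its symbol and a line at the mean of 3 libraries. The vehicle points lie above the ginkgetin points for the first 10 genes and below them for C5ar2, Cd55 and Cd59a, with no overlap.

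The shares of cells moved with these values. Macrophage-like cells held 90.0% ± 4.5 in vehicle and 80.3% ± 12.0 in ginkgetin of all C1qa UMIs and 94.2% ± 3.80 in vehicle and 88.8% ± 6.07 in ginkgetin of all Vsig4 UMIs (SD, n = 3), while endothelial-like cells held 62.1% ± 2.37 in vehicle and 78.2% ± 4.36 in ginkgetin of Cd55 and 42.4% ± 4.30 in vehicle and 89.2% ± 5.6 in ginkgetin of C5ar2. The part of these shares of cells in the differences was not tested in the sums, and the levels within classes are given below. Of the other 20 genes tested, 5 had a log2 fold change above 0 and 15 below, and edgeR called none. The hepatocyte-derived lectins and terminal components were among the latter: Mbl2 stood at 1.98, 11.1 and 11.0 against 0, 1.44 and 1.83 normalised CPM, C8g at 6.70, 22.1 and 20.6 against 0.814, 7.95 and 2.72 normalised CPM and C9 at 2.20, 7.74 and 5.07 against 0, 1.56 and 2.07 normalised CPM. Their spread over libraries was wide, and ginkgetin replicate 1 held no hepatocyte-like cell. With the replicate number as a block, which pairs same-numbered libraries, Mbl2 (-2.97), Mbl1 (-2.49), C8g (-2.35), C9 (-2.18) and Masp2 (-1.90) were called as well, which made 18, while the share of all genes called rose from 13% to 17.2%. With a block for the gene-symbol set of replicate 3 these 5 were not called and the 13 were, with 16.2% of all genes. DESeq2 called 16, the 13 together with C8g, Mbl1 and Mbl2, with 15.4% of all genes. Without ginkgetin replicate 2 the calls were C1qb, C1qc, C5ar1 and Cd55, with 4.93% of all genes, and without vehicle replicate 2 there were 8, with 5.27%. With library totals 9 were called, with 12% of all genes, and C4bp, Vsig4, Itgam and Itgax were lost.

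Within macrophages, C2, C4b, C6, Fcna and Cd55 were higher with ginkgetin and C1qb was lower, while C1qa, Cfp and Vsig4 had no call. In macrophage-like cells 22 of the 36 genes passed the filter and 8 were called, 5 higher and 3 lower with ginkgetin, against 11.3% of the 10090 genes tested. In Kupffer-like cells, the macrophage sub-clusters with Kupffer markers, 6 of 22 were called, 5 higher and 1 lower, against 7.59% of 9131 genes. The 5 genes called higher were the same in both classes. The median log2 fold change was -0.02 over the 22 genes and 0.02 over all genes in macrophage-like cells, and -0.07 and 0.01 in Kupffer-like cells. The macrophage-like cells of the groups lay in different clusters, 2904 of 2932 vehicle cells in 3 and 778 of 890 ginkgetin cells in 1 other. The 3 clusters also split by replicate 3, which used another set of gene symbols. The first held 1149, 659 and 37 vehicle cells, the second 1, 7 and 700, and the third 2, 2 and 347. Among Kupffer-like cells, 1501 of 1522 vehicle cells lay in 3 sub-clusters and 795 of 831 ginkgetin cells in 2 others, so that the groups were compared over different sub-clusters. Those of the ginkgetin group had leading genes that include Clec4f, Cd5l and Marco and, from the complement list itself, C6 and Fcna. Clec4f and Cd5l were also among the leading genes of vehicle sub-clusters. Marco was found as a Kupffer marker in both ginkgetin sub-clusters and in no vehicle one. Timd4 was found in both ginkgetin sub-clusters and, among the vehicle ones, only in that made up mostly of replicate 3.

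Of the genes called higher, 2 encode the substrates cleaved by C1s and MASP2 on the way to the C3 convertase. C2 stood at 3.85, 5.24 and 2.34 normalised CPM in the vehicle libraries and 75.8, 45.2 and 83.5 in the ginkgetin libraries of macrophage-like cells. Every ginkgetin library was above every vehicle library, 18.5-fold by the fit, and the log2 fold change was 4.21 (standard error 0.38, adjusted p 0.00433 by edgeR). C4b stood at 27.9, 52.2 and 20.9 normalised CPM in the vehicle libraries and 300.3, 239 and 308 in the ginkgetin libraries, again with no overlap and a log2 fold change of 3.08 (standard error 0.36, adjusted p 0.00592 by edgeR). In Kupffer-like cells the values were 5.29, 9.72 and 2.93 against 87.8, 47.3 and 103 normalised CPM for C2 and 42.2, 94.0 and 38.6 against 367, 246 and 374 normalised CPM for C4b, with log2 fold changes of 3.81 and 2.51. C2 and C4b lie close together on chromosome 17, at chr17:34862602-34882100 and chr17:34728139-34743902 (GRCm38.p6, RefSeq), within the major histocompatibility complex. Cfb, at chr17:34856374-34862514 beside C2, encodes the matching protease of the alternative pathway. It did not pass the test, at 19.9, 27.7 and 6.60 against 9.10, 10.6 and 9.68 normalised CPM in macrophage-like cells and 26.8, 45.8 and 11.6 against 7.99, 9.74 and 11.9 normalised CPM in Kupffer-like cells, with log2 fold changes of -0.86 and -1.39. C3 stood at 14.1, 20.5 and 40.6 against 45.5, 25.3 and 26.9 normalised CPM in macrophage-like cells and was not called, with a log2 fold change of 0.30 (standard error 0.43, adjusted p 0.689 by edgeR).

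C6, the terminal component that binds C5b, stood at 117, 111 and 101 normalised CPM in the vehicle libraries and 734, 488 and 678 in the ginkgetin libraries of macrophage-like cells, with a log2 fold change of 2.53 (standard error 0.25, adjusted p 0.00433 by edgeR). In Kupffer-like cells it stood at 184, 204 and 232 against 966, 508 and 829.7 normalised CPM, a log2 fold change of 1.89 (standard error 0.30, adjusted p 0.0153 by edgeR). The groups overlapped in neither class. Fcna rose, at 372, 344 and 205 against 1116, 1071 and 1333 normalised CPM in macrophage-like cells and 587, 628 and 463 against 1429.6, 1117 and 1627 normalised CPM in Kupffer-like cells, with log2 fold changes of 1.94 (standard error 0.30, adjusted p 0.00903 by edgeR) and 1.32 (standard error 0.29, adjusted p 0.0283 by edgeR). Cd55 stood at 7.80, 5.89 and 11.5 against 84.9, 61.1 and 74.2 normalised CPM in macrophage-like cells and 9.26, 10.1 and 22.3 against 104, 64.0 and 88.5 normalised CPM in Kupffer-like cells, with log2 fold changes of 3.09 (standard error 0.29, adjusted p 0.00433 by edgeR) and 2.58 (standard error 0.38, adjusted p 0.0136 by edgeR). All ginkgetin libraries of both genes were above all vehicle libraries.

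The summed level of 10 endothelial markers moved in the same direction. It stood at 221, 213 and 199 CPM in the macrophage-like cells of vehicle and at 934, 1702 and 1031 CPM in those of ginkgetin, while it stood at 9709 to 21027 CPM in endothelial-like cells. Of the 5 genes called higher, Cd55 is highest in endothelial-like cells, while there C2 stood at 16.7 ± 12.9, C4b at 3.45 ± 1.78, C6 at 2.43 ± 1.29 and Fcna at 7.65 ± 4.83 CPM. The part of endothelial RNA in these results was not tested. When only cells with at most 1 UMI of those markers were summed, the 5 genes were called in macrophage-like cells, with 6.68% of all genes and log2 fold changes of 3.88 for C2, 3.56 for C4b, 4.07 for C6, 2.90 for Fcna and 3.87 for Cd55. In Kupffer-like cells the same restriction left C4b (2.94), C6 (2.87), Fcna (1.87) and Cd55 (3.17) called, and C2 was below the filter on low counts, with 9.67% of all genes called. This restriction was chosen after the data were seen, and it also selects cells by their depth. The depth also differed: the median UMIs per macrophage-like cell were 9481, 7545.5 and 16339 in the vehicle replicates and 2319, 2055 and 2348 in the ginkgetin replicates, and the part of depth in these sums was not tested.

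The genes called lower in macrophage-like cells were C1qb, C5ar1 and Itgax. C1qb stood at 7814, 8324 and 7741 normalised CPM in the vehicle libraries and 3804, 3017 and 2179 in the ginkgetin libraries, with no overlap and a log2 fold change of -1.41 (standard error 0.31, adjusted p 0.0236 by edgeR). C1qa and C1qc, which encode the other 2 chains of the same protein, stood at 4061, 6094 and 6243 against 4029, 3485 and 3953 normalised CPM and 7134, 6094 and 4951 against 4044, 3077 and 2776 normalised CPM and were not called, with log2 fold changes of -0.52 (standard error 0.29, adjusted p 0.267 by edgeR) and -0.88 (standard error 0.30, adjusted p 0.0852 by edgeR). The 3 genes lie side by side on chromosome 4, C1qb at chr4:136880126-136886200, C1qc at chr4:136889801-136892936 and C1qa at chr4:136895916-136898844. For each, the vehicle libraries were above the ginkgetin libraries, and whether the 3 differed from each other in their change was not tested. C5ar1 stood at 189.6, 171 and 154 against 106, 70.5 and 78.8 normalised CPM and Itgax at 84.3, 58.5 and 136 against 33.4, 38.5 and 31.5 normalised CPM. Their log2 fold changes were -1.03 (standard error 0.22, adjusted p 0.022 by edgeR) and -1.44 (standard error 0.32, adjusted p 0.0246 by edgeR), and neither gene overlapped between groups. In Kupffer-like cells C1qb was called, at 7956, 8458 and 7407 against 3091, 3067 and 1943 normalised CPM and -1.56 (standard error 0.34, adjusted p 0.0288 by edgeR). There C5ar1, at 146, 125 and 118 against 79.9, 73.7 and 59.5 normalised CPM, had an edgeR adjusted p of 0.0437 but a log2 fold change of -0.88, short of a 2-fold difference. Itgax stood at 56.9, 33.6 and 67.6 against 12.0, 34.8 and 8.37 normalised CPM with an edgeR adjusted p of 0.107. It was called there by DESeq2, as was C1qc, and by edgeR in cells with at most 1 endothelial marker UMI (10.3% and 9.67% of all genes).

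Vsig4 stood at 1444, 1167 and 952 normalised CPM in the vehicle libraries and 2090.3, 1724 and 1663 in the ginkgetin libraries of macrophage-like cells, with no overlap, a log2 fold change of 0.62 (standard error 0.27, adjusted p 0.153 by edgeR) and no call. In Kupffer-like cells it stood at 2201, 1980.2 and 1938 against 2608, 1769.8 and 2000.3 normalised CPM, with overlap and a log2 fold change of 0.06. The share of Kupffer-like cells among macrophage-like cells moved with it, at 710 of 1155, 417 of 682 and 395 of 1095 cells in the vehicle libraries and 88 of 102, 233 of 239 and 510 of 549 in the ginkgetin libraries. Cfp stood at 824, 803 and 605 against 792, 627 and 848 normalised CPM and C3ar1 at 202, 238 and 265 against 169.9, 167 and 186 normalised CPM in macrophage-like cells, with log2 fold changes of 0.02 and -0.43 and no call. Itgam (-0.51), Cr1l (-0.73) and C8g (-0.95) had log2 fold changes below 0 and Cd59a (0.92), C5ar2 (0.25) and Clu (1.39) above 0, and none passed the test. Clu stood at 29.1, 41.7 and 10.8 against 51.6, 148 and 16.5 normalised CPM, with ginkgetin replicate 2 far above the rest, and with the replicate block it was called in macrophage-like (1.15) and Kupffer-like (1.26) cells, with 16% and 13.4% of all genes. C1ra stood at 8.53, 8.51 and 10.8 against 15.2, 6.65 and 7.88 normalised CPM. The 14 genes under the filter in both classes were C1s1, C4bp, Hc, C7, C8a, C8b, C9, Cfd, Cfi, Masp1, Masp2, Mbl1, Mbl2 and Serping1.

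**Figure D3:**
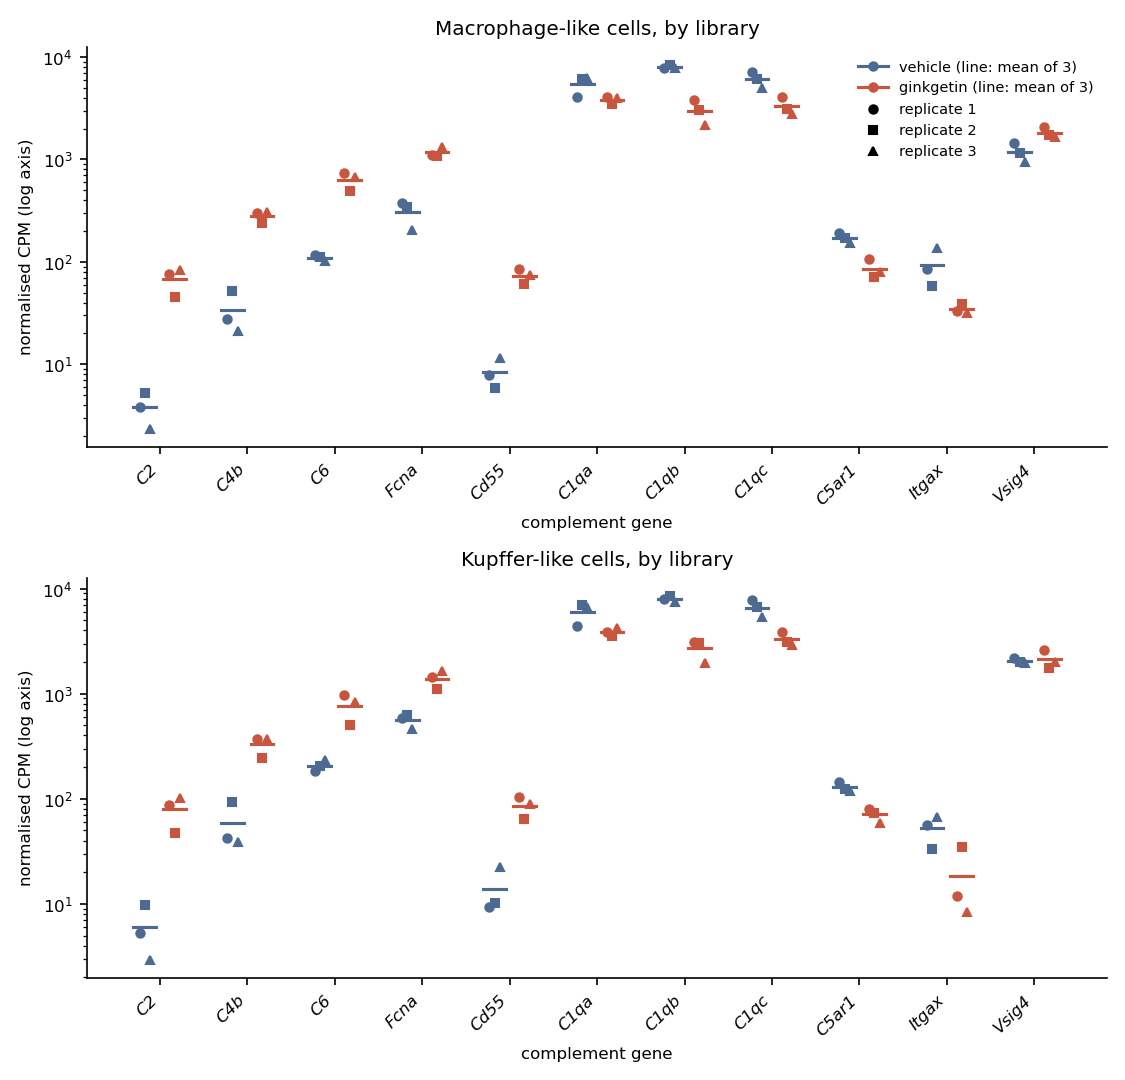
Normalised CPM (log axis) of 11 complement genes in macrophage-like cells (upper panel) and Kupffer-like cells (lower panel), 1 point per library and a line at the mean of 3. C2, C4b, C6, Fcna and Cd55 are higher in every ginkgetin library than in any vehicle library in both panels, and C1qb is lower.

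These calls depended on single libraries other than vehicle replicate 3, without which the 8 macrophage-like calls held and Cfb was added (with 13.8% of all genes), while in Kupffer-like cells Fcna was lost and Cfb added (9.69%). Without vehicle replicate 1, edgeR called 0 complement genes in macrophage-like cells (6 of 9819 genes called) and 0 in Kupffer-like cells (2 of 9488). At an unadjusted p under 0.05 were 10 of 21 complement genes against 20.8% of all genes in the first, and 8 of 21 against 16.8% in the second. Without vehicle replicate 2, C2 and C4b were called in macrophage-like cells and 0 in Kupffer-like cells, with 0.0611% and 0.0211% of all genes, which were also the shares without vehicle replicate 1. Without ginkgetin replicate 1 the counts were 7 and 0, with 7.9% and 0.789% of all genes. Without ginkgetin replicate 2, C2, C4b, C6 and Cd55 were called in macrophage-like cells, and C2 and C6 in Kupffer-like cells, with 1.58% and 0.502% of all genes. Without ginkgetin replicate 3 there were 7 calls in the first and C2 and C6 in the second, with 5.1% and 1.09% of all genes. With the study's stated limits in UMIs, 7 of 18 were called in macrophage-like cells, and of 16 in Kupffer-like cells C2 and C6 were called, with 5.3% and 1.18% of all genes. Over the libraries left out in turn, the log2 fold change in macrophage-like cells stayed between 3.94 and 4.47 for C2, 2.83 and 3.54 for C4b, 2.37 and 2.67 for C6, 1.72 and 2.11 for Fcna, and 2.92 and 3.39 for Cd55. That of C1qb stayed between -1.66 and -1.27. With library totals, C2, C4b, C6, Fcna and Cd55 were called in macrophage-like cells with log2 fold changes of 4.72, 3.57, 3.0, 2.44 and 3.54, Vsig4 was called at 1.08, and C1qb (-0.98), C5ar1 (-0.56) and Itgax (-0.98) were not. The calls over all genes moved there from 598 higher and 541 lower to 1703 higher and 170 lower. In Kupffer-like cells the same 6 complement genes were called with totals, with 11.9% of all genes against 18.6% in macrophage-like cells, while the calls over all genes moved from 327 higher and 366 lower to 964 higher and 122 lower.

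Promoters are printed for genes on either side of the macrophage comparison, so that their sequences can be compared: C1qb, called lower, with its neighbour C1qc, not called, and C6 and Fcna, called higher. Each is the 250 bases before a start that RefSeq (GRCm38.p6) gives for the gene, and it lies within the full span of the gene for Fcna and overlaps that span in part for C6 and C1qc. C1qa, C2 and C4b had no entry in the promoter table. Capitals mark the letters GAGGAA, the core bound by PU.1, and TGCTGA, the short site bound by Maf factors, on either strand (their reverse complements are TTCCTC and TCAGCA), and both are families known from macrophage gene control.
C1qb (chr4:136886201-136886450, minus strand): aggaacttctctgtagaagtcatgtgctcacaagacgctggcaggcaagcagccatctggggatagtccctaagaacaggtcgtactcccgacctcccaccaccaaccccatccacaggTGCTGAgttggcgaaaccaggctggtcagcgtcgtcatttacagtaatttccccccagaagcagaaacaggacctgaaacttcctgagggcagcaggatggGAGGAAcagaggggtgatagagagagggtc
C1qc (chr4:136892915-136893164, minus strand): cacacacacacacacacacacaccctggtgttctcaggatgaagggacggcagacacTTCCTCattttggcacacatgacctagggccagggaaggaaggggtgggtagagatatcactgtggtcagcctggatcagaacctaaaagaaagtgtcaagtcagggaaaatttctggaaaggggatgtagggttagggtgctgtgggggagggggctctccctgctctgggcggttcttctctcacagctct
C6 (chr15:4726960-4727209, plus strand): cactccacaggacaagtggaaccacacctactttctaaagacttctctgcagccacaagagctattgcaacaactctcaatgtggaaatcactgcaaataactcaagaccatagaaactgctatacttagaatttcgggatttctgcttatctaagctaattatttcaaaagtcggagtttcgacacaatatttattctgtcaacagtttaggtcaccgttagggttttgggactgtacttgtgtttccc
Fcna (chr2:25627975-25628224, minus strand): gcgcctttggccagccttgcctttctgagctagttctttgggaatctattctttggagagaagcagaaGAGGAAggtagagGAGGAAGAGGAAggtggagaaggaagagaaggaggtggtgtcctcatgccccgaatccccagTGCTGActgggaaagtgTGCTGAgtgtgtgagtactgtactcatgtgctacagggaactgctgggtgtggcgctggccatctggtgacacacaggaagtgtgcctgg
GAGGAA was found in 23.3% and TGCTGA in 16.1% of the 32851 promoter windows of this length before a RefSeq gene start. C1qb held 1 of each, C1qc held 1 GAGGAA, Fcna held 3 GAGGAA and 2 TGCTGA, and C6 held neither. Of the 28 complement genes with an entry, 7 held GAGGAA and 9 held TGCTGA. A match is a description of letters and not of a bound site.

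**Figure D4:**
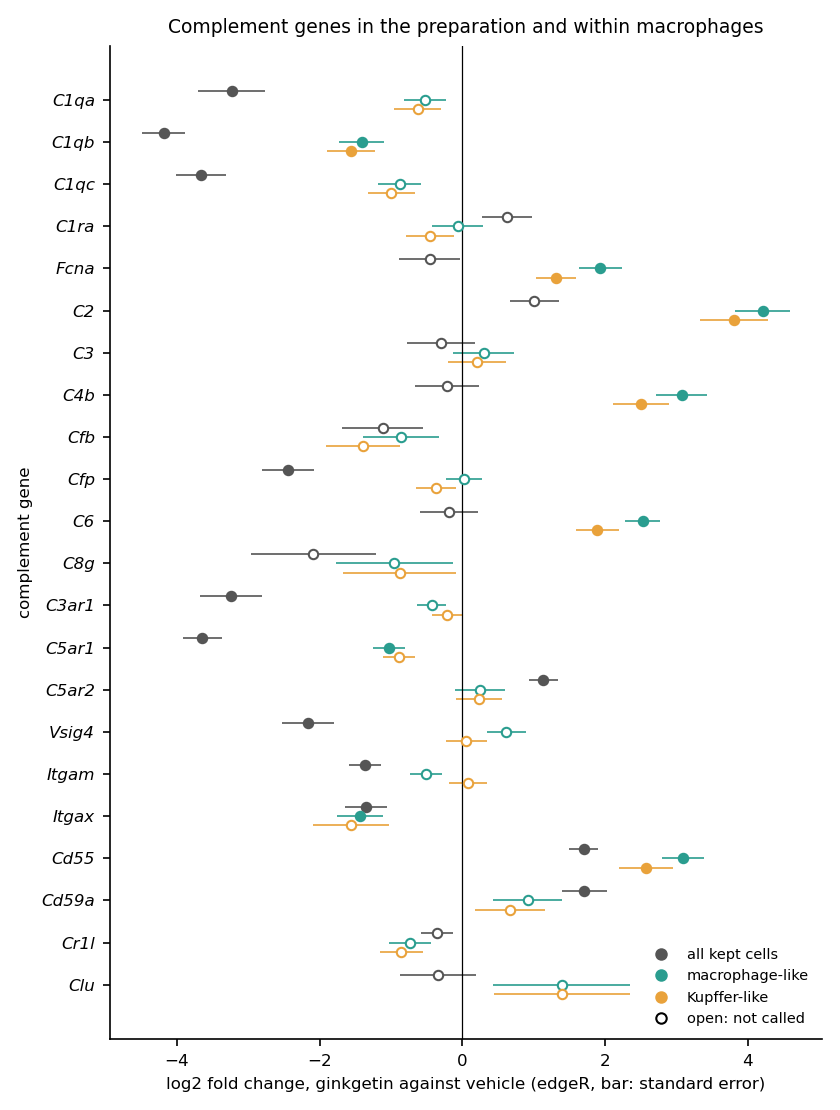
Log2 fold change of each tested complement gene, ginkgetin against vehicle (x axis, bars show the standard error from edgeR), in all kept cells, macrophage-like cells and Kupffer-like cells, with filled points for called genes. C1qa, C1qb, C1qc, C3ar1, C5ar1, Cfp and Vsig4 lie far below 0 in all kept cells and nearer to 0 within macrophages, whereas C2, C4b, C6 and Fcna are called in macrophage-like and Kupffer-like cells and not in all kept cells.

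The share of cells with a UMI was compared after each cell was thinned to 1000 UMIs, so that depth was equal. This share rises with the level per cell as well as with the number of cells that carry a gene. Thinning to a fixed total puts the shares on the scale of library totals and not of TMM. On that scale the median log2 fold change of all genes was 0.52 in macrophage-like and 0.47 in Kupffer-like cells. The shares were not computed over all genes. Cells under 1000 UMIs were left out, 58 of the 549 macrophage-like cells of ginkgetin replicate 3 and at most 2 in each other library of that class. With 3 libraries against 3 an exact permutation test, two-sided, cannot go below p 0.10, and over the 10 tests the smallest adjusted value was 0.2. C4b was found in 1.73, 4.55 and 2.01% against 27.5, 26.4 and 34.0% of macrophage-like cells. Vsig4 was found in 40.2, 39.0 and 31.1% against 85.3, 79.5 and 83.1% of them. For both, every ginkgetin library was above every vehicle library (exact permutation p 0.1). Without thinning the Vsig4 share was 48.4% ± 5.51 against 88.5% ± 1.80, and the C4b share 15.5% ± 1.68 against 49.0% ± 6.35 (SD, n = 3). In Kupffer-like cells alone, C4b was found in 3.52, 6.0 and 2.28% against 29.5, 24.9 and 35.6%, and Vsig4 in 61.3, 58.3 and 71.8% against 90.9, 82.0 and 90.3%. C1qa was found in nearly every macrophage-like cell, 91.9, 95.5 and 96.2% against 98.0, 95.8 and 99.0%, and the groups overlapped. C3 was found in 1.39, 1.03 and 3.48% against 1.96, 3.77 and 3.05% of macrophage-like cells (exact permutation p 0.3). Clu was found in 2.60, 3.23 and 1.28% against 4.90, 16.7 and 3.46%, with ginkgetin replicate 2 far above the rest (exact permutation p 0.1). Without thinning the Clu share was 19.9% ± 4.76 against 20.0% ± 15.3 (SD, n = 3, exact permutation p 0.9), and in Kupffer-like cells 21.1% ± 5.28 against 19.7% ± 15.6, where the thinned means were 2.83% and 10.9%. That of C3 was 16.4% ± 12.7 against 7.51% ± 1.61 in macrophage-like cells (SD, n = 3, exact permutation p 0.2). Unthinned shares also carry the depth, which was greater in the vehicle macrophage-like cells, so they cannot test the thinned differences.

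Lymphoid-like cells, which should lack C1q, gave the background of these shares. C1qa was found in 3.32, 5.59 and 3.43% against 1.36, 2.37 and 0.650% of lymphoid-like cells, and in 5.63, 5.77 and 2.87% against 1.31, 2.18 and 0.880% of endothelial-like cells (exact permutation p 0.1). The endothelial share was below the lymphoid share in vehicle replicate 3 and ginkgetin replicates 1 and 2 and above it in the others, and it is not read as expression. Median UMIs were 2245 to 7578.5 in endothelial-like and 2477 to 5307.5 in lymphoid-like cells. Vsig4 in endothelial-like cells, at 1.87% ± 0.737 against 0.892% ± 0.446 (SD, n = 3, exact permutation p 0.1), stood beside 1.26% ± 0.403 against 0.671% ± 0.176 in lymphoid-like cells. C4b was found in at most 0.575% of endothelial-like and 0.616% of lymphoid-like cells in any library (vehicle replicate 3 in both), far below its macrophage-like share. C3 was found in 0.866% ± 0.163 against 0.772% ± 0.481 of endothelial-like cells, with overlap. In ginkgetin replicate 2 Clu was found in 16.7% of macrophage-like, 12.5% of endothelial-like and 9.98% of lymphoid-like cells, its highest share in each class.

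**Figure D5:**
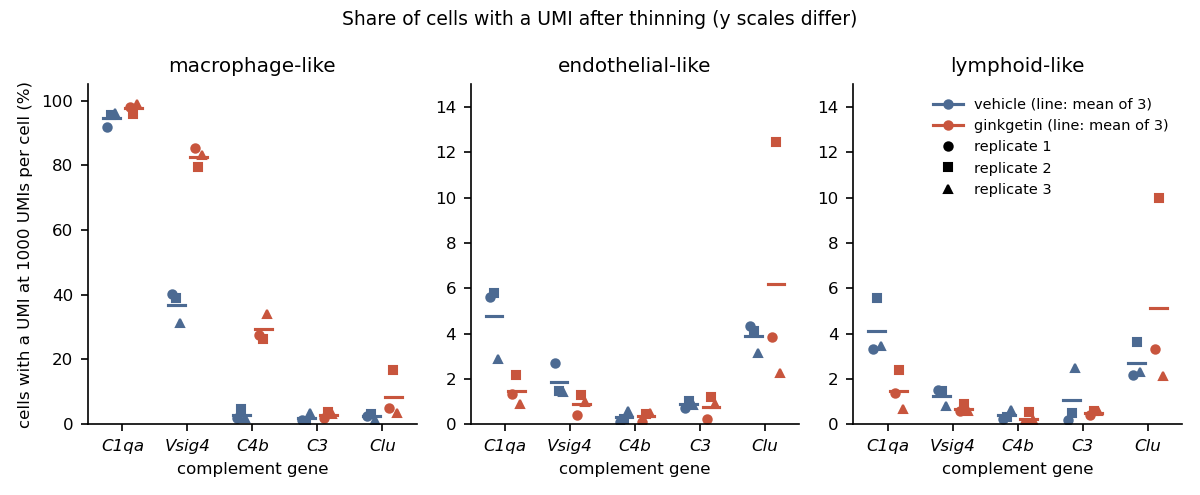
Share of cells with at least 1 UMI of a gene after thinning to 1000 UMIs per cell (%), in macrophage-like, endothelial-like and lymphoid-like cells, 1 point per library and a line at the mean of 3 (the y axes differ between the panels). Vsig4 and C4b are higher in every ginkgetin library of macrophage-like cells, and C1qa is at a similar low share in the endothelial-like and lymphoid-like panels.

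In endothelial-like cells, the class where Cd55, Cd59a and C5ar2 are highest, 17 complement genes were tested and 0 were called by edgeR, against 0.835% of 10061 genes. The groups lay in different clusters: 1791 of 1833 vehicle cells were in 2 clusters and 5238 of 5278 ginkgetin cells in 3 others. The clusters also split by replicate 3, which used another set of gene symbols. Vehicle replicate 3 gave 328 of the 340 cells of a vehicle cluster, and ginkgetin replicate 3 gave 985 of the 994 cells of a ginkgetin cluster. Of the 17, 5 had an unadjusted p under 0.05, as had 13.8% of all genes, and DESeq2 called the 3 C1q genes, with 3% of all genes. Over the 17 genes the median log2 fold change was -0.27, and over all genes -0.01. Cd55 stood at 676, 603 and 626 normalised CPM in the vehicle libraries and 730.1, 577 and 847 in the ginkgetin libraries, with overlap and a log2 fold change of 0.18 (standard error 0.23, adjusted p 0.82 by edgeR). Cd59a stood at 463, 465 and 281 against 455, 507 and 367 normalised CPM and C5ar2 at 144, 158 and 115 against 170.1, 180.2 and 166 normalised CPM, with log2 fold changes of 0.14 (standard error 0.27, adjusted p 0.901 by edgeR) and 0.31 (standard error 0.18, adjusted p 0.515 by edgeR). The 3 genes called higher in the whole preparation thus had no call within the class where each is highest. The 3 C1q genes were the ones called with the replicate block, with 4.33% of all genes, at -2.60 for C1qb, -2.27 for C1qc and -2.05 for C1qa. They stood at 6.69 to 110.4 CPM over the 3 genes and 6 libraries, and the lymphoid-like level moved with them. Cr1l stood at 77.2, 53.3 and 99.0 against 50.3, 46.7 and 94.4 normalised CPM, with a log2 fold change of -0.27. C1ra stood at 13.1, 16.5 and 16.2 against 21.8, 27.4 and 33.0 normalised CPM, with no overlap and a log2 fold change of 0.86 (standard error 0.22, adjusted p 0.159 by edgeR).

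In stellate-like cells vehicle replicate 1 had 6 cells and was left out of the fit, and the other libraries held 12 to 65. Of 14 complement genes tested, 0 were called by edgeR against 0.0194% of 5157 genes, 7 had an unadjusted p under 0.05 (all genes, 7.02%), and DESeq2 called C3, with 0.33% of all genes. Their median log2 fold change was -0.47 against 0.01 over all genes. Fcna stood at 924 and 287 normalised CPM in the vehicle libraries left (replicates 2 and 3) against 1090.1, 1709 and 2436, without overlap and with a log2 fold change of 1.54 (standard error 0.59, adjusted p 0.612 by edgeR). Serping1 stood at 1998 and 1828 against 912, 993 and 1124 normalised CPM and C6 at 169.9 and 157 against 79.3, 38.3 and 26.7 normalised CPM, both higher in each vehicle library. C3 stood at 54.4 and 573 against 19.8, 3.83 and 3.34 normalised CPM and C4b at 231 and 1772 against 178, 169 and 294 normalised CPM, and vehicle replicate 3 was far above vehicle replicate 2 for both. C1ra (367 and 507 against 258, 261 and 447 normalised CPM), C1s1 (381 and 507 against 258, 299 and 480.4 normalised CPM), C2 (339.8 and 203 against 159, 138 and 260.2 normalised CPM) and Cfb (102 and 30.4 against 59.5, 26.8 and 56.7 normalised CPM) overlapped. With the replicate block 6 were called, with 3.28% of all genes: Fcna (1.98), C1qa (-1.99), C1qb (-2.54), C6 (-2.34), C4b (-1.63) and C3 (-6.22). In this fit vehicle replicate 1 is absent and ginkgetin replicate 1 has no partner. Macrophage markers stood at 144 to 186 CPM in the vehicle and 18.9 to 94.2 CPM in the ginkgetin stellate-like cells. The part of macrophage RNA in the values of C1qa, C1qb and C6 was not tested. Without vehicle replicate 2, C3 and C4b were called, with 0.57% of all genes and with vehicle replicate 3 as the only vehicle library and its spread assumed to be like that of the ginkgetin libraries.

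In hepatocyte-like cells, few of which belong in a non-parenchymal preparation, ginkgetin replicate 1 had none, ginkgetin replicate 2 had 12, and the other libraries held 45 to 226. Of 23 complement genes tested, 0 were called by edgeR against 0% of 4058 genes, 7 had an unadjusted p under 0.05 (all genes, 14%), and DESeq2 called 0, with 1.85% of all genes. Their median log2 fold change was 0.52 against -0.02 over all genes. The highest 3 genes by CPM were C8g, Clu and C3. C8g stood at 808, 636 and 535 against 917 and 174 normalised CPM (the last 2 values are ginkgetin replicates 2 and 3), and Clu at 786, 340.4 and 252 against 1014 and 252 normalised CPM, both with overlap. C3 stood at 119, 26.9 and 245 against 531 and 770.2 normalised CPM and C8a at 38.0, 17.9 and 42.3 against 241 and 102 normalised CPM, both without overlap and with log2 fold changes of 2.31 (standard error 0.81, adjusted p 0.328 by edgeR) and 2.27 (standard error 0.61, adjusted p 0.27 by edgeR). They were called with the replicate block, with 3.6% of all genes, at 2.69 and 2.19. Mbl2 stood at 271, 365 and 291 against 241 and 150.3 normalised CPM, Hc at 32.5, 11.2 and 25.2 against 72.4 and 67.1 normalised CPM, Cfi at 233, 114 and 94.4 against 217 and 80.5 normalised CPM and C4bp at 271, 233 and 203 against 193 and 110.0 normalised CPM. Endothelial markers stood at 39.5 to 249 CPM in the vehicle hepatocyte-like cells and at 2404 and 1045 CPM in those of ginkgetin replicates 2 and 3, and their part in these values was not tested.

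In cholangiocyte-like cells 13 complement genes were tested and 0 called by edgeR, against 0.617% of 7947 genes, with 3 at an unadjusted p under 0.05 (all genes, 13.1%) and C1qb called by DESeq2, with 1.08% of all genes. A median log2 fold change of -0.25 stood against 0.01 over all genes. Clu, highest in this class, stood at 26864, 21525 and 17615 against 17345, 17607 and 16536 normalised CPM, and C3 at 369, 497 and 1321 against 381, 328 and 758 normalised CPM, without overlap for Clu and with overlap for C3, and with log2 fold changes of -0.36 (standard error 0.32, adjusted p 0.651 by edgeR) and -0.57 (standard error 0.55, adjusted p 0.689 by edgeR). Serping1 stood at 115, 107 and 93.4 against 101, 83.7 and 80.8 normalised CPM. C4bp at 59.6, 50.1 and 56.0 against 22.8, 35.1 and 14.2 normalised CPM and C1qb at 59.6, 61.6 and 31.1 against 12.4, 20.4 and 2.83 normalised CPM did not overlap, and with the replicate block both were called, with 2.29% of all genes, at -1.19 and -2.10.

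In monocyte-like cells 18 complement genes were tested and 0 called by edgeR, against 0% of 8555 genes, with 5 at an unadjusted p under 0.05 (all genes, 14.6%) and C5ar1, C3ar1 and Cd59a called by DESeq2, with 1.78% of all genes. The list's median log2 fold change was -0.01, against 0.02 over all genes. C5ar1 stood at 120.1, 116 and 90.2 normalised CPM in the vehicle libraries and 15.9, 33.9 and 29.2 in the ginkgetin libraries, and C3ar1 at 40.8, 52.0 and 38.1 against 7.07, 21.2 and 8.76 normalised CPM, neither with overlap, and the log2 fold changes were -2.01 (standard error 0.29, adjusted p 0.125 by edgeR) and -1.79 (standard error 0.38, adjusted p 0.139 by edgeR). With the replicate block C5ar1 (-1.98), C3ar1 (-1.83) and Cd59a (2.47) were called, with 3.89% of all genes. Endothelial markers stood at 48.3 to 81.3 CPM in the vehicle and 148 to 974 CPM in the ginkgetin monocyte-like cells. Macrophage markers stood there at 1739 to 1907 CPM in vehicle and 1105 to 1735 CPM in ginkgetin. The part of these markers' cells in the values was not tested. Itgam, highest in this class, stood at 128, 145 and 184 against 117, 166 and 259 normalised CPM with a log2 fold change of 0.25 (standard error 0.32, adjusted p 0.759 by edgeR). The C1q genes, the 3 highest by CPM here, stood at 943, 1079 and 673 against 762, 397 and 143 normalised CPM for C1qb, 303, 531 and 360.3 against 485, 317 and 140.2 normalised CPM for C1qa and 514, 548 and 245 against 470.5, 262 and 121 normalised CPM for C1qc. Monocyte-like cells were 15.1%, 15.3% and 13.7% of kept cells against 3.44%, 3.14% and 3.43%.

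In dendritic-like cells 11 complement genes were tested and 0 called by edgeR, against 0.0612% of 8176 genes, with 6 at an unadjusted p under 0.05 (all genes, 17.4%) and the 3 C1q genes and Cfp called by DESeq2, with 1.7% of all genes. The median log2 fold change was -0.47 against 0.01 over all genes. Itgax, highest in this class, stood at 126, 106 and 171 against 128, 149 and 146 normalised CPM with a log2 fold change of 0.06 (standard error 0.24, adjusted p 0.933 by edgeR). Cfp stood at 162, 127 and 115 against 57.6, 56.0 and 73.3 normalised CPM and Cd55 at 2.04, 3.72 and 0.988 against 8.77, 21.9 and 8.33 normalised CPM, neither with overlap. With the replicate block Cfp (-1.08), Cd55 (2.55) and C1qc (-2.77) were called, with 3.73% of all genes. C1qb stood at 102, 60.9 and 165 against 13.8, 20.5 and 7.49 normalised CPM without overlap. Endothelial markers stood at 112 to 138 CPM in the vehicle and 295 to 970 CPM in the ginkgetin dendritic-like cells. Macrophage markers stood there at 313 to 433 CPM in vehicle and 143 to 272 CPM in ginkgetin. The part of these markers' cells in the values was not tested. In lymphoid-like cells 18 were tested and 0 called by edgeR, against 0% of 10900 genes, with 6 at an unadjusted p under 0.05 (all genes, 12%) and C1qb and C1qc called by DESeq2 with 1.34% of all genes, and the median log2 fold change was -0.51 against 0.01. Cd55, the gene of the list highest in that class, stood at 77.5, 100.4 and 91.9 against 75.8, 151 and 154 normalised CPM and Cr1l at 73.0, 69.0 and 71.4 against 48.8, 46.1 and 70.8 normalised CPM. C1qb stood at 69.8, 78.9 and 59.99 against 14.5, 28.9 and 6.08 normalised CPM and C1qc at 70.3, 60.2 and 34.6 against 11.5, 23.2 and 5.15 normalised CPM, and with the replicate block both were called, with 1.17% of all genes, at -2.30 and -2.21, at the background level of C1q described for the shares of cells.

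A second list held 28 other complement genes, of which 25 were in the tables used here. In all kept cells 4 of 21 tested were called, against 13% of all genes tested. None of these calls held without vehicle replicate 2 or ginkgetin replicate 2, while 1 gene was called without vehicle replicate 1 (with 6.29% of all genes) or 3 (11.4%), 1 with replicates 1 and 2 only (12.9%) and 2 with library totals. Cd46, a cofactor for the cleavage of C3b and C4b, rose, at 0.893, 0.629 and 0.862 against 1.90, 2.37 and 2.51 normalised CPM, with a log2 fold change of 1.5. C1rl, a relative of C1r, and Vtn, the inhibitor vitronectin, fell by 1.29 and 1.26 on the log2 scale. Fcnb, the myeloid ficolin, had 28, 9 and 49 UMIs in the vehicle libraries and 0 in each ginkgetin library, at least 17.6-fold lower by a floor of 3 counts over the group. Cd93, once described as a C1q receptor, and C1qbp, a mitochondrial protein that binds C1q, were called lower in macrophage-like cells, at 65.9, 91.9 and 122 against 42.5, 41.2 and 44.1 normalised CPM and 124, 98.2 and 107 against 69.8, 53.2 and 42.6 normalised CPM, and neither call held with library totals. The call of Cd93 was also lost with any 1 of the 6 libraries left out, and that of C1qbp with any 1 of 4 of them. In the other 7 classes, from endothelial-like to monocyte-like, edgeR called 0 of this list.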

How the data were processed

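3 vehicle and 3 ginkgetin libraries were analysed from the deposited tables of raw UMI counts per gene and cell barcode, which the authors made from 10x Genomics reads of liver non-parenchymal cells. The submitters' notes name the builds GRCm38 and mm10, and the aligner is not given in the sources used here. Every barcode deposited had at least 501 genes. The study's methods give the limits of 250 to 5000 in UMIs per cell. Here they were applied to genes per cell, which departs from that unit, and the stated unit was run as an alternative, both with mitochondrial UMIs under 5%. Doublet scores were computed with an expected rate of 6%, called at most 0.192% of a library's kept cells and were not used to remove cells. Cells were clustered in scanpy 1.11.5 (counts scaled to 10000 per cell, 2000 variable genes, 30 principal components, 15 neighbours, Leiden resolution 1 and 0.5 for macrophage sub-clusters, seed 1) without 61 complement genes, and a cluster was named from at least 3 markers found in 25% of its cells at a ratio of 2 to other cells (pseudocount 0.1).

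Raw counts were summed per library and class, given at least 10 cells, and tested with edgeR 4.0.16 (quasi-likelihood, TMM, filterByExpr, R 4.3.3) across all genes, with Benjamini-Hochberg adjustment. A gene was called at an adjusted p under 0.05 and a fold over 2. DESeq2 1.42.0, other scalings, no filter, a replicate block, a block for the gene-symbol set of replicate 3, replicates 1 and 2 alone, doublets left out and each library left out in turn were alternatives. Same-numbered libraries deviated together, with correlations of 0.692, 0.672 and 0.907 in all kept cells and 0.395, 0.444 and 0.798 in macrophage-like cells. Libraries of different numbers were not correlated, and replicate 3 of each group used another set of gene symbols. Whether the numbers pair the libraries can therefore not be told from this check, and no label gives a pairing. The replicate block is given as an alternative only. Shares of cells were compared by exact permutation tests after thinning to 1000 UMIs per cell. Library totals of 13128697 to 61796882 UMIs set the precision, and for a gene at 0 the limit is 3 counts, which covers counting error only. The tests were tried on simulated counts before use.

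The 36 genes, the 28 other complement genes and the marker lists were chosen with earlier results of these data known. Named with values were the listed genes called in any class, the 3 with the highest mean CPM in each class, 26 preset genes in the class where each was highest, and the called genes among the others. Gene symbols are those of the tables. Promoter sequences and positions come from RefSeq (GRCm38.p6), and 28 of the 36 genes had a promoter entry. The result of 1 other complement gene is not reported here.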

Additional observations from a re-analysis of the deposited data

How the results depend on the processing

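The 35 log2 fold changes of called genes were refitted 540 times under the alternatives: 392 kept their direction and call, 146 kept the direction without the call, and 2 turned. No call was lost under DESeq2, RLE size factors, the barcode-set block or the replicate block, and 11 were lost under library totals, 7 with replicates 1 and 2 only, 25 without vehicle replicate 1, 25 without vehicle replicate 2, 23 without ginkgetin replicate 2 and 6 to 12 without any other 1 library. The cell filter in the unit that the study states, 250 to 5000 UMIs per cell, lost 21 of the 33 calls that could be refitted, the 2 that turned among them. Under it Cfp turned to 0.43 and Vsig4 to 1.22 in all kept cells, and the complement genes called were 0 in all kept cells (8 of 31 at an unadjusted p under 0.05 by edgeR, against 14.2% of all genes), 2 in Kupffer-like and 2 in endothelial-like cells (1.18% and 0.945% of all genes called). The cause was not tested.

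DESeq2 called 3 complement genes in endothelial-like, 1 in stellate-like, 1 in cholangiocyte-like, 2 in lymphoid-like, 4 in dendritic-like and 3 in monocyte-like cells, where edgeR called 0, and in that order 3%, 0.33%, 1.08%, 1.34%, 1.7% and 1.78% of all genes. It called 16 in all kept cells, 8 in macrophage-like and 8 in Kupffer-like cells (15.4%, 13.5% and 10.3% of all genes). The replicate block, which pairs libraries by number, called 3 in endothelial-like, 2 in hepatocyte-like, 6 in stellate-like, 2 in cholangiocyte-like, 2 in lymphoid-like, 3 in dendritic-like and 3 in monocyte-like cells (4.33%, 3.6%, 3.28%, 2.29%, 1.17%, 3.73% and 3.89% of all genes), beside the 5 it added in all kept cells and the 1 each in macrophage-like and Kupffer-like cells, and it changed no other call of the 36 genes. Of the second list it added 2 calls in all kept cells (Colec10 among them), Colec12 in Kupffer-like, Susd4 in endothelial-like, and Vtn and Colec12 in stellate-like cells. The barcode-set block called 3 in endothelial-like, 5 in stellate-like, 2 in cholangiocyte-like, 1 in lymphoid-like, 4 in dendritic-like and 3 in monocyte-like cells (4.52%, 3.14%, 2.76%, 0.22%, 3.95% and 3.44% of all genes), and, unlike the replicate block, none in hepatocyte-like cells (2.61%) and no more than the 13 in all kept cells (16.2%). With no filter on low counts 3 were called in hepatocyte-like, 4 in stellate-like, 3 in dendritic-like and 1 in monocyte-like cells (1.2%, 0.738%, 0.402% and 0.0443% of all genes), and with the highest doublet scores left out 2 in dendritic-like cells (1.18%). With replicates 1 and 2 only, 10 were called in Kupffer-like, 1 in endothelial-like, 3 in hepatocyte-like, 1 in stellate-like, 2 in cholangiocyte-like and 3 in dendritic-like cells (10.6%, 3.7%, 5.65%, 1.65%, 1.83% and 2.37% of all genes). In hepatocyte-like and stellate-like cells this left 3 libraries, with 1 library in an arm, which is assumed to vary like the other arm.

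Leaving out each library in turn gave 4 to 13 calls in all kept cells, 0 to 9 in macrophage-like, 0 to 6 in Kupffer-like, 0 to 2 in stellate-like and 0 in every other class, while the shares of all genes called ran from 4.93% to 11.4%, 0.0611% to 13.8%, 0.0211% to 9.69% and 0% to 0.57%, and in the other classes up to 0.481%. In percentage points of cells, the difference in endothelial-like share ranged from -0.303 to 0.169 for C3, from -0.046 to 0.191 for C4b (-0.0085 and -0.0215 without ginkgetin replicate 2 or 3) and from -0.82 to 4.29 for Clu, so none of these had a stable direction. Without thinning the difference was -0.812 for C4b in endothelial-like cells and -8.87 for C3 in macrophage-like cells, opposite in sign to the thinned values.

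The filter in UMIs could not be fitted in stellate-like, cholangiocyte-like and dendritic-like cells, nor the doublet alternative in stellate-like cells, for want of cells. Calls in hepatocyte-like and stellate-like cells rest on 5 libraries with as few as 12 cells.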
